A study of Mus musculus with 16 samples.

Results

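Mif and Ddt encode macrophage migration inhibitory factor and D-dopachrome tautomerase. This pair is the subject here, 2 of the 49585 genes in the deposited count tables. They were picked for their values in the groups compared below, so their levels and differences between those groups are given as a description, with no test. Mif is ENSMUSG00000033307 and Ddt is ENSMUSG00000001666, and both had a row in each table. RNA was sequenced from cells that the series describes as neutrophils, short-lived white blood cells of the innate immune system, sorted by flow cytometry from the bones of C57BL/6 mice of 8 to 12 weeks. There were 4 groups of 4 libraries. P2KO is labelled Vav:cre-PHD2f/f, a deletion of the oxygen sensor PHD2, and P2WT is its wild type control. P2H2KO is labelled Vav:cre-PHD2/HIF2ff/ff, a deletion of PHD2 together with the transcription factor subunit HIF2α, and P2H2WT is its wild type control. Vav:cre is a recombinase active throughout the blood-forming lineage, so the deletion was not limited to neutrophils, and whether the wild type animals carried the recombinase or the floxed alleles is not given in the sources used here. The question these groups address is how PHD2 and HIF2α shape gene expression in neutrophils.

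MIF is a small secreted protein, among the first cytokines described, that is stored preformed in many cell types and recruits and activates leukocytes. It signals through CD74, with CD44 as the signalling partner, and through the chemokine receptors CXCR2 and CXCR4, of which CXCR2 is the main chemokine receptor of neutrophils. DDT, also called MIF-2, is its closest relative, binds CD74 as well, and shares with MIF a tautomerase activity on the artificial substrate D-dopachrome. MIF is also known as a gene that rises in hypoxia through HIF1, the transcription factor that PHD2 holds down in oxygen by marking its α subunit for destruction.

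The 2 genes are neighbours in tandem on the minus strand of mouse chromosome 10 (GRCm38, GENCODE M21), with 85938 bases between them. Mif lies at chr10:75859353-75860240 and its main transcript has 3 exons of 544 bases in all. Ddt lies at chr10:75771230-75773414 and its main transcript has 3 exons of 649 bases in all. Over the 2 annotated transcripts of each gene, the exons cover 745 bases for Mif and 773 bases for Ddt, the lengths used per kilobase below. The sequences before their starts are shown because PHD2 acts through HIF, which binds the letters ACGTG or GCGTG. The search covered both strands from 250 bases before to 50 after the RefSeq start (RefSeq, GRCm38.p6), and capitals mark a match. Of 32851 mouse promoters of that length, 43.8% held at least 1 match and 20.6% at least 2 (overlapping matches counted separately). The window of Mif held 1 match, at base 30 after the RefSeq start (chr10:75860244-75860248), and none upstream of that start. GENCODE starts Mif at chr10:75860240 on the minus strand, so the same match lies just upstream of the GENCODE start. The upstream window of Ddt held 2 matches that overlap in the palindrome CACGTG, 169 bases before the start. The letters say nothing of whether a factor binds there, and the files hold no binding data. The Mif sequence is chr10:75860278-75860527, the Mif site is chr10:75860234-75860258, and the Ddt sequence is chr10:75773415-75773624, where the 40 bases nearest to the RefSeq start were left out because GENCODE places the first Ddt exon there. All are minus strand, 5′ to 3′.
Mif upstream: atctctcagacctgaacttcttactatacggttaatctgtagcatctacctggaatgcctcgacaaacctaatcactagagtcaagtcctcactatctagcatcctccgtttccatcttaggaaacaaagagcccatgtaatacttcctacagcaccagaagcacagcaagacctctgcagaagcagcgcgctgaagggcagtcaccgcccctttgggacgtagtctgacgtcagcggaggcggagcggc
Mif site: tgagctgggtCACGTagctcaggtc
Ddt upstream: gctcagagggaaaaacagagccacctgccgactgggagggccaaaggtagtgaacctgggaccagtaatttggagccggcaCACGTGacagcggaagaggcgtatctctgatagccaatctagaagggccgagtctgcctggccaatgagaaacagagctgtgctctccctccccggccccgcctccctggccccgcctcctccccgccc
The share of G and C was 51.2% in the 250 bases before Mif and 62.8% before Ddt, against a median of 52.4% over all promoters.

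Mif has processed pseudogenes, intronless copies of its mRNA, that could take or share its reads. The 60 bases below, positions 270 to 329 of the Mif transcript, lie in the coding sequence (bases 73 to 420) and are shown to make plain how close the copies are, with capitals where a copy differs from Mif.
Mif: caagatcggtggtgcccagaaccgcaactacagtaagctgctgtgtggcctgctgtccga
Gm10169: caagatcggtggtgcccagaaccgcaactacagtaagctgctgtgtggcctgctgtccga
Gm16379: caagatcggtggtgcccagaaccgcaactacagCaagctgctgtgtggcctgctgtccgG
Mif-ps3: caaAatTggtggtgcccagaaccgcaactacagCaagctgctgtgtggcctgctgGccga
Gm10169 is identical to Mif over this stretch and differs at 3 of 348 coding bases, Gm16379 at 6 of 348 and Mif-ps3 at 12 of the 345 that aligned. Of 495 windows of 50 bases in the main Mif transcript, 378 (76.4%) also occur in a transcript of another gene. The counts given to the copies were low all the same. Gm10169 had between 0 and 3 counts per library, and Gm16379 and Mif-ps3 had 0 or 1. C230062I16Rik, a chromosome 7 transcript that matches Mif at 99.4% over 508 bases and contains Gm10169, had 1 to 4. How the authors' aligner handled reads that fit several places is not given in the sources used here, so reads of Mif that also fit a copy may have been dropped and the Mif level may be too low. Ddt shares 232 of its 773 exon bases (30.0%) with Gm20441, a gene model on the same strand that starts within the span of Gstt3 and ends within Ddt. Gm20441 had 0 counts in all 16 libraries, and reads in the shared bases may have been left uncounted for Ddt.

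**Figure D1:**
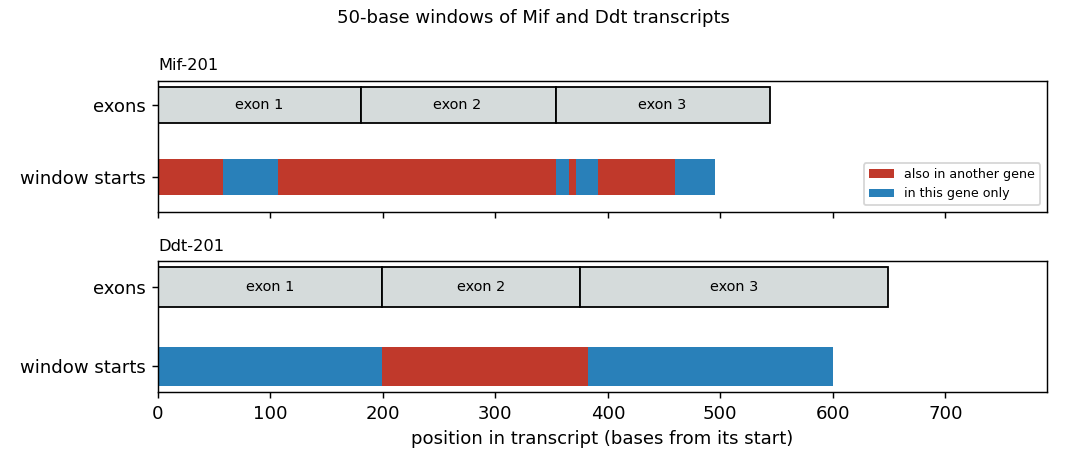
Exons of the main Mif and Ddt transcripts and, below them, the start positions of 50-base windows, in bases from the transcript start. Red windows also occur in a transcript of another gene, 378 of 495 for Mif and 183 of 600 for Ddt, and blue windows occur in the gene itself alone.

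Library totals were 23450746 to 28601284 counts. Levels are given as CPM, the count scaled to a library of 1000000 counts after TMM correction of library sizes, which aligns the bulk of the genes between libraries. Neither targeted gene was lower where it is labelled deleted: Egln1, which encodes PHD2, was 43.2 to 58.4 CPM in P2KO and 45.9 to 51.3 CPM in P2WT, and Epas1, which encodes HIF2α, was 3.42 to 8.39 CPM in P2H2KO and 2.55 to 4.97 CPM in P2H2WT. A count over a whole gene does not check the removal of 1 exon, so the groups are called by their labels throughout. The neutrophil markers were abundant in every library, with S100a8 at 5245 to 14637 CPM and Ly6g at 84.3 to 270 CPM. Markers of other cells were present too. The 9 erythroid genes found in the tables summed to 23849 to 49119 CPM, 11 monocyte and macrophage genes to 2101 to 4320 CPM, 9 B cell genes to 205 to 729 CPM and 9 T and NK cell genes to 65.0 to 97.3 CPM, and no gene of these lists was at 0 in all libraries. In such mixed bulk samples, fewer cells of a type and less RNA per cell cannot be told apart.

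Mif was higher in every library labelled deficient than in every control of its line. In P2KO the 4 libraries had 38.8, 42.1, 35.9 and 39.2 CPM of Mif, and in P2WT 23.8, 27.8, 25.0 and 30.2 CPM. The lowest P2KO library, replicate 6, stood above the highest control, replicate 7, so the groups did not overlap. The group means were 39.0 ± 2.54 CPM in P2KO and 26.7 ± 2.88 CPM in P2WT (SD, n = 4), a fitted log2 difference of 0.56 (SE 0.084), or 1.47 times the control level, with 2 SE on either side spanning 1.31 to 1.66 times.

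The line labelled as lacking HIF2α too showed the same separation of its groups. The 4 P2H2KO libraries had 42.7, 43.6, 41.9 and 44.7 CPM of Mif, and the 4 P2H2WT libraries had 29.2, 28.5, 32.8 and 22.9 CPM. P2H2KO had the tightest values of the 4 groups, and P2H2WT the widest, with replicate 18 lowest. The means were 43.2 ± 1.18 CPM and 28.3 ± 4.06 CPM (SD, n = 4), a log2 difference of 0.61 (SE 0.105), or 1.52 times the control, with 2 SE on either side spanning 1.32 to 1.76 times. The difference of the P2 line minus that of the P2H2 line was -0.061 on the log2 scale (SE 0.137). That value spans -0.33 to 0.21 at 2 SE on either side. Negative values mean a larger Mif difference in the line labelled as lacking HIF2α too, and positive values a smaller one. Within the span of -0.33 to 0.21, a gain, a loss and no change of the Mif difference with HIF2α deleted cannot be told apart.

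The values of Ddt overlapped between deficient and control libraries in both lines. The P2KO libraries had 2.28, 2.49, 2.02 and 3.03 CPM of Ddt, and the P2WT libraries had 2.24, 2.55, 2.22 and 2.73 CPM. These ranges overlap, and P2KO held both the lowest and the highest value, in replicates 6 and 9. The means were 2.45 ± 0.431 and 2.44 ± 0.247 CPM (SD, n = 4), a log2 difference of 0.023 (SE 0.162). In the other line the P2H2KO libraries had 3.55, 2.94, 2.73 and 3.25 CPM and the P2H2WT libraries had 3.01, 2.63, 3.13 and 2.59 CPM, again overlapping. Their means were 3.12 ± 0.358 and 2.84 ± 0.273 CPM (SD, n = 4), a log2 difference of 0.13 (SE 0.145), and the difference of the 2 lines' effects was -0.12 (SE 0.203). Behind the Ddt values lie 51 to 84 counts per library, against 568 to 1220 for Mif, and 2 SE on either side allow log2 differences of -0.30 to 0.35 in the P2 line and -0.16 to 0.42 in the P2H2 line.

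**Figure D2:**
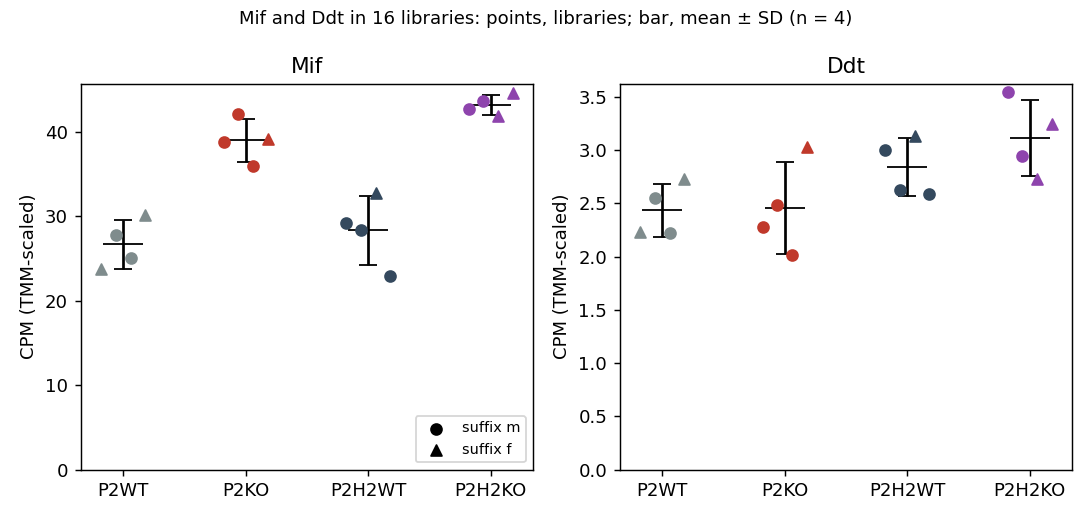
CPM of Mif (left) and Ddt (right) on axes that start at 0, for the 4 libraries of each group. Points are libraries, circles for title suffix m and triangles for suffix f, and bars are the mean and SD. The deficient groups sit above their controls for Mif, at 39.0 against 26.7 CPM and 43.2 against 28.3 CPM, and overlap with them for Ddt.

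The order of the group means for Mif was P2H2KO, P2KO, P2H2WT and P2WT. P2H2KO and P2KO overlapped only narrowly, at 41.9 to 44.7 against 35.9 to 42.1 CPM, and the 2 control groups overlapped widely. For Ddt the order was P2H2KO, P2H2WT, P2KO and P2WT, and every group overlapped with its neighbours in that order. The control groups differed by -0.080 in mean log2 CPM for Mif (P2WT minus P2H2WT) and by -0.22 for Ddt. The SDs in P2WT and P2H2WT were 0.154 and 0.214 for Mif and 0.141 and 0.135 for Ddt (n = 4 each). Within the lines the fitted Ddt differences were 0.023 (SE 0.162) and 0.13 (SE 0.145), and with such spreads these values cannot be ranked. Each line was deposited on its own, so lines and any difference in processing cannot be told apart. Per kilobase of exon, Mif stood at 52.4 ± 3.40, 35.8 ± 3.87, 58.0 ± 1.58 and 38.0 ± 5.46 CPM in P2KO, P2WT, P2H2KO and P2H2WT (SD, n = 4 each). Ddt stood at 3.17 ± 0.558, 3.15 ± 0.320, 4.03 ± 0.463 and 3.67 ± 0.353 CPM per kilobase in the same groups. Mif was thus 11.4 ± 0.276 times as abundant as Ddt per kilobase in P2WT and 10.3 ± 0.893 times in P2H2WT, and 16.8 ± 2.29 times in P2KO and 14.5 ± 1.52 times in P2H2KO (ratios, SD, n = 4 each). Counted per window that occurs in no other gene, 117 for Mif and 417 for Ddt, the ratio was 39.1 ± 0.949 in P2WT, so the ratio of the 2 genes depends on how many of the shared reads were kept.

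Among all 13734 genes tested in the P2 line, 6 (0.0437%) had an edgeR adjusted p under 0.05, and in 118 (0.859%) every deficient library exceeded every control. An unadjusted p under 0.05 was found for 480 of the 13734 genes. In the P2H2 line 10 of 13435 genes (0.0744%) were called, 354 had an unadjusted p under 0.05 and 121 (0.901%) were separated upwards. In both lines, 27 of 13314 genes (0.203%) were separated upwards, Mif among them and Ddt not, and nothing is read from this since the genes were picked on these groups. The difference between the lines' effects was called for 0 of 14080 genes (0%) by edgeR, 212 at an unadjusted p under 0.05, and for 0 by DESeq2.

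The title of each library ends in m or f. Ddx3y, a gene of the Y chromosome, had at least 1307 counts in each of the 10 libraries with m and at most 1 in each of the 6 with f. Mif and Ddt were not picked on this division, which gives a test. Libraries with f exceeded those with m by a log2 difference of 0.073 for Mif (SE 0.072, adjusted p = 0.603 by edgeR) and by 0.11 for Ddt (SE 0.105, adjusted p = 0.575 by edgeR), with group as a term. Neither passed, while 23 of 14080 genes (0.163%) did. Each group held 2 or 3 libraries with m. The labels do not say that libraries came from separate animals, so p-values measure the spread between these libraries.

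Cd74, Cd44, Cxcr2 and Cxcr4, which encode receptors of MIF, had over 100 CPM in every library, and none of them passed the test in either line. The mean of Cd74, the shared receptor of MIF and DDT, was 475 ± 99.8 CPM across P2KO libraries and 511 ± 96.0 CPM across their controls (SD, n = 4), with a log2 difference of -0.095 (SE 0.176). The P2H2 line had 623 ± 118 and 587 ± 69.6 CPM of Cd74, a difference of 0.087 (SE 0.149). Cd44, the co-receptor, was at 456 ± 150 and 477 ± 63.9 CPM in P2KO and P2WT. In P2H2KO and P2H2WT it was at 550 ± 95.4 and 523 ± 67.1 CPM. Cxcr4, the marrow retention receptor that also binds MIF, was at 338 ± 64.0 and 351 ± 17.7 CPM in P2KO and P2WT. In P2H2KO and P2H2WT it was at 387 ± 78.3 and 371 ± 59.2 CPM. The mean of Cxcr2, the neutrophil chemokine receptor, was 294 ± 43.9 CPM over the P2H2KO libraries against 237 ± 39.5 CPM over their controls. Its log2 difference of 0.31 (SE 0.138) was not called by edgeR after adjustment over all genes. Ackr3, an atypical receptor that binds MIF and CXCL12, was under 0.6 CPM in every library and was too low to be tested in the P2H2 line. In all, 0 of 5 receptors were called in the P2 line and 0 of 4 in the P2H2 line by edgeR, and Cxcr2 was the 1 receptor with an unadjusted p under 0.05, in the P2H2 line, where 354 of all 13435 genes had one, against 0 in the P2 line, where 480 of 13734 did. DESeq2 called 0 in either line.

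Intracellular partners of MIF gave no calls either. The list held Cops5 (also called JAB1, a subunit of the COP9 signalosome that MIF binds), Aifm1 (a flavoprotein with which MIF enters the nucleus in one form of cell death), Uso1 (the Golgi protein p115, which takes part in MIF secretion), Rps19, Prdx1, the chaperones Hsp90aa1 and Hsp90ab1, and Stub1, a ubiquitin ligase. Of these 8 genes, 0 were called in the P2 line and 0 in the P2H2 line by edgeR, and 0 in either line by DESeq2. An unadjusted p under 0.05 was found for 0 of them in the P2 line and 0 in the P2H2 line, beside 480 of 13734 and 354 of 13435 among all genes. Their log2 differences lay between -0.11 and 0.11 with a median of 0.051 in the P2 line, and between -0.13 and 0.041 with a median of -0.041 in the P2H2 line, against medians over all tested genes of 0.020 and 0.0011. Dct, Tyr and Tyrp1 are genes of melanin synthesis that share the dopachrome name with Ddt, and Dct is also a dopachrome tautomerase. They had 0 counts in all 16 libraries, which does not exclude a level too low to be counted at this depth.

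The genes around the pair were examined because Mif and Ddt sit among them. Between or overlapping Ddt and Mif lie Gm20441 and the glutathione transferases Gstt1, Gstt2, Gstt3 and Gstt4, and 6 protein coding genes were taken on either side. Of these 17 genes, 15 were tested, and 0 were called in either line by edgeR or by DESeq2. Without adjustment, p was under 0.05 for 0 of them in the P2 line and for 1, Ggt1, in the P2H2 line, beside the same 480 of 13734 and 354 of 13435 among all genes. The median log2 difference was 0.058 in the P2 line and -0.064 in the P2H2 line. Ggt1, a gamma-glutamyltransferase, had the largest difference of these genes, with 4.43 ± 1.62 CPM over the P2H2KO libraries against 2.22 ± 0.161 CPM over their controls (SD, n = 4), a log2 difference of 0.99 (SE 0.254, adjusted p = 0.817 by edgeR). The genes next to Mif on the side away from Ddt are Derl3, a protein of the endoplasmic reticulum, with log2 differences of 0.16 (SE 0.256) and -0.33 (SE 0.255) in the P2 and P2H2 lines, and Smarcb1, a chromatin remodelling subunit, with 0.079 (SE 0.065) and -0.021 (SE 0.075).

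**Figure D3:**
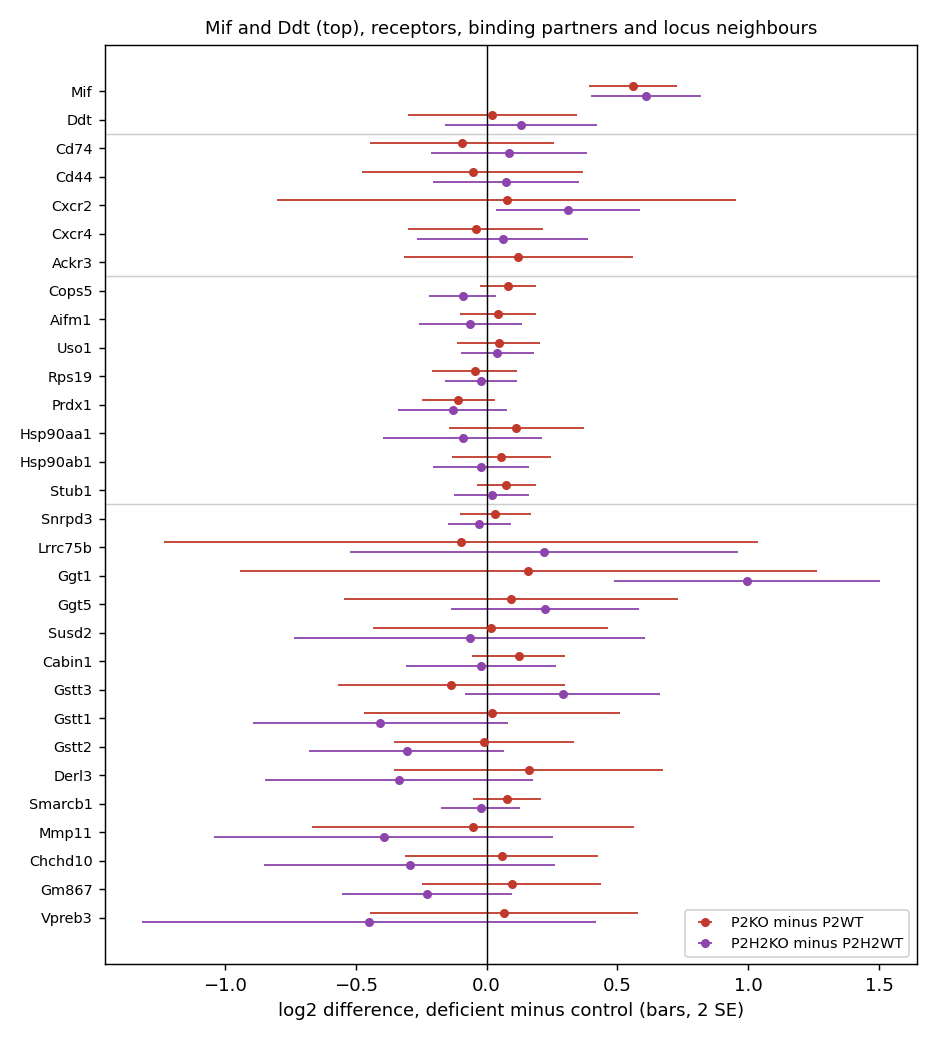
Log2 difference between deficient and control libraries, with bars of 2 SE, for Mif and Ddt, then receptors, binding partners and the genes around Mif and Ddt, separated by lines. Red is the P2 line and purple the P2H2 line. Mif lies at 0.56 and 0.61, and the genes of the other lists lie on both sides of 0.

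Beside these, values of a HIF target list that leaves Mif out are given as a description. The list was known from earlier results to rise in these libraries, and Mif was picked on the same groups. Nothing is therefore read from the likeness of the list to Mif. Of 18 targets tested in the P2 line all were higher and 4 were called (Aldoc, Ankrd37, Pfkl, Tpi1), with a median log2 difference of 0.53 beside 0.56 for Mif. Over all genes tested in that line, 7936 of 13734 were higher and 6 were called (0.0437%). Of 17 tested in the P2H2 line all were higher and 8 were called, those 4 with Bnip3, Egln3, P4ha1 and Pdk1, with a median of 0.70 beside 0.61 for Mif. Over all genes tested there, 6791 of 13435 were higher and 10 were called (0.0744%). DESeq2 called 8 of the 18 targets in the P2 line and 14 of the 17 in the P2H2 line. Ankrd37, an ankyrin repeat gene, had the largest differences, at 2.73 (SE 0.182) and 2.70 (SE 0.174). The call of Tpi1 in the P2 line was lost under 5 of 15 alternatives, with an adjusted p of up to 0.110 by edgeR. In the P2H2 line the call was lost under 10 of 15 alternatives for Pdk1 (adjusted p up to 0.179 by edgeR), under 4 of 15 for Aldoc (up to 0.0734) and under 3 of 15 for P4ha1 (up to 0.0534). The other calls on this list were kept under all 15 alternatives run in their line.

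The genes whose log2 CPM ran most like Mif over the 16 libraries, among 9547 with a mean of at least 5 CPM, were Tpi1 (r = 0.918), Pfkl (r = 0.909), Pdk1 (r = 0.902), P4ha1 (r = 0.891) and Grhpr (r = 0.885). Tpi1 and Pfkl are enzymes of glycolysis, Pdk1 holds back the entry of pyruvate into mitochondria, P4ha1 hydroxylates collagen, and Grhpr reduces glyoxylate. These correlations share the 4 groups as their points and so carry the same group differences, and they are a description. Ddt, kept in the comparison although its mean is under 5 CPM, came 159th in likeness to Mif (r = 0.431). With 51 to 84 counts per library, counting noise limits every correlation of Ddt, and those given next are a description too. The genes most like Ddt were the ribosomal Rpl37rt (r = 0.853), Rpl23 (r = 0.842) and Rpl35a (r = 0.837), followed by Uri1 and Rack1 (both r = 0.83). None of these 5 genes was called in either line by edgeR, with log2 differences between -0.069 and 0.14.

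**Figure D4:**
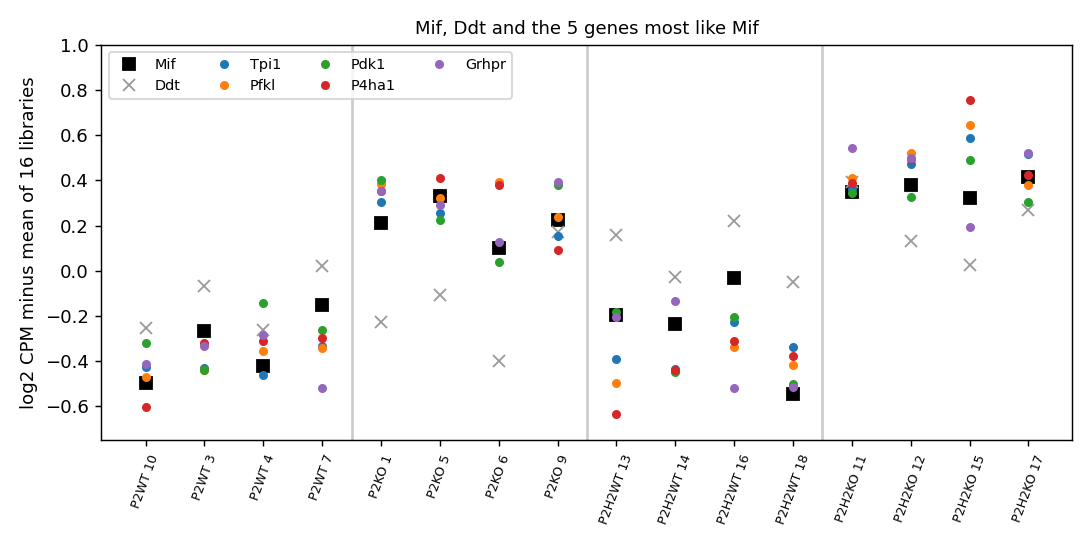
Log2 CPM minus the mean of the 16 libraries for Mif (black squares), Ddt (grey crosses) and the 5 genes most like Mif (coloured points), with libraries along the x axis by group. Mif and the 5 genes are above 0 in every P2KO and P2H2KO library and below it in every control, and Ddt lies on both sides of 0 in P2KO, P2WT and P2H2WT and above it in P2H2KO.

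With group means removed, the deviations of Mif and Ddt over n = 16 libraries were set against each other. Pearson's r was 0.605 (permutation p = 0.00788, adjusted 0.129 over 21 relations) and Spearman's rho was 0.665 (permutation p = 0.0117, adjusted 0.172). The adjusted values do not pass. Without the 2 libraries farthest from the median of Mif r was 0.594, and within the P2 and P2H2 lines, of 8 libraries each, it was 0.668 and 0.571. Ddt, again kept although under 5 CPM, was 451st among the 9547 genes in likeness to Mif on this scale, a rank that its low counts limit. The highest were Sms (r = 0.909) and Phgdh (r = 0.890), genes of polyamine and serine synthesis that edgeR did not call in either line. Those most like Ddt were Ercc6l (r = 0.861), a mitotic helicase, Ccdc167 (r = 0.860) and Pars2 (r = 0.852). These are the highest of 9547 correlations over 16 libraries, and Ddt had only 51 to 84 counts per library. They are a description, and a link between these genes was not tested.

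**Figure D5:**
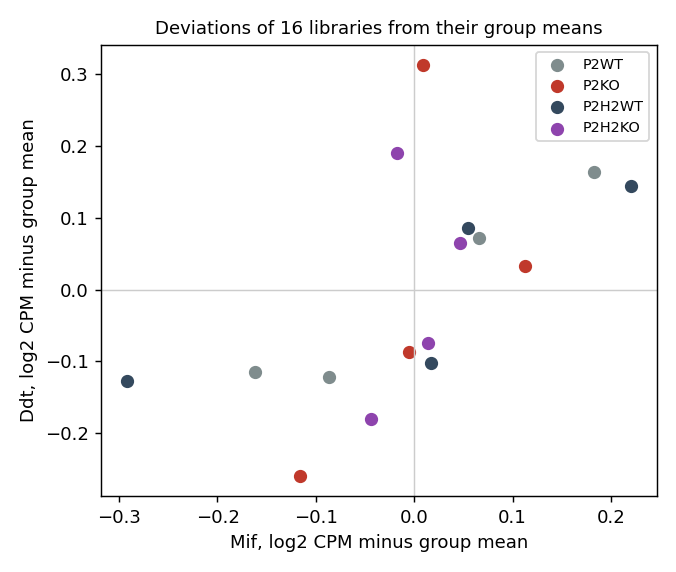
Log2 CPM of Mif (x axis) and Ddt (y axis) minus the mean of the library's own group, 1 point per library, coloured by group. The points run from lower left to upper right with r = 0.605, and 2 deficient libraries have high Ddt with Mif near its group mean.

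Scores of cell marker lists (the mean log2 CPM of a list's genes) were set against Mif and Ddt in the same way. Over n = 16 libraries, Mif deviations ran with the early granule list (Elane, Mpo and others of immature neutrophils, r = 0.667, permutation p = 0.0226, adjusted 0.129) and against the mature neutrophil list (r = -0.572, permutation p = 0.0123, adjusted 0.129), and neither passed after adjustment. Without the 2 farthest libraries these were 0.495 and -0.560. For Ddt the value with the mature neutrophil list was -0.666 (permutation p = 0.0306, adjusted 0.129), which fell to -0.392 without the 2 farthest, P2KO replicates 6 and 9, and so rests partly on them. Within lines it was -0.841 in the P2 line and -0.289 in the P2H2 line, each of 8 libraries. Mif deviations and HIF target scores were at r = -0.319 (permutation p = 0.236, adjusted 0.413 over 21 relations). For Ddt and the HIF target scores r was -0.613 (permutation p = 0.0441, adjusted 0.154), and -0.384 without P2KO replicates 6 and 9. Mif deviations and the late granule list were at r = -0.509 (permutation p = 0.0267, adjusted 0.129). None of these passed after adjustment.

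The same scores were compared between the groups themselves, as differences of mean log2 CPM. The mature neutrophil score differed by -0.067 in the P2 line and by 0.22 in the P2H2 line. In the P2H2 line all 10 of its genes were higher, beside 6791 of all 13435 genes tested. Of the 10, 1 had an unadjusted p under 0.05 by edgeR, beside 354 of the 13435. The late granule score differed by -0.085 and 0.11 in the P2 and P2H2 lines, the cell cycle score by 0.086 and -0.054, and the MHC class II score by -0.17 and -0.013. The monocyte and macrophage score differed by -0.27 (P2KO minus P2WT) and by -0.20 (P2H2KO minus P2H2WT) on the log2 scale. Its summed levels were 2101 to 2796 CPM against 2732 to 3376 CPM in the P2 line and 2340 to 4320 CPM against 2503 to 4062 CPM in the P2H2 line. In the P2 line all 11 of its genes were lower and 3 had an unadjusted p under 0.05 by edgeR. There, 5798 of all 13734 genes were lower and 480 had such a p. In the P2H2 line 7 of the 11 were lower and 6 had such a p, beside 6644 and 354 of all 13435 genes. None of the 11 was called in either line. In the P2 and P2H2 lines the differences were -0.33 and -0.11 for the T and NK score, -0.0091 and -0.40 for the B cell score, and 0.055 and -0.20 for the erythroid score. In the P2 line 7 of 9 B cell and 9 of 9 erythroid genes were higher, beside 7936 of all 13734 genes. In the P2H2 line all 9 of each list were lower, beside 6644 of all 13435. None of these genes was called in either line. Of the 9 T and NK genes, 8 were lower in the P2 line and 6 in the P2H2 line. An unadjusted p under 0.05 by edgeR was found for 3 and 0 of them, and none was called. The early granule score differed by -0.13 in the P2 line and by 0.24 in the P2H2 line, while Mif was higher in both. All 5 early granule genes were lower in the P2 line and higher in the P2H2 line, beside 5798 of 13734 and 6791 of 13435 genes. Late granule genes were lower for 5 of 6 and higher for 6 of 6. Of 10 cell cycle genes, 10 were higher in the P2 line and 9 lower in the P2H2 line. None was called. The part of the cell types and states behind these scores in the Mif difference was not tested.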

How the data were processed

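Per the file headers, the authors deposited 2 tables of raw counts per gene, 1 per line, with 8 libraries each and 49585 Ensembl identifiers. Counts were made with HTSeq on mm10, per the submitters' processing notes, which name no version. The aligner, annotation release, strand setting and treatment of reads that fit several places are not given in the sources used here. Groups and replicate numbers came from the library labels. The members and gene lists were chosen with earlier results of these data known. Symbols, coordinates and transcripts came from GENCODE M21, matching 49326 identifiers, and promoters from RefSeq (GRCm38.p6). Transcripts were compared with blastn 2.17.0, with an E value of at most 1e-10.

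Each line's 8 libraries were fitted on their own with edgeR 4.0.16 (limma 3.58.1, R 4.3.3), after filterByExpr and TMM scaling, with glmQLFit (robust) and glmQLFTest, two-sided, and Benjamini-Hochberg adjustment over all genes tested, threshold 0.05. The difference of the effects and the title suffix used a fit of all 16 libraries. CPM are counts scaled to a TMM-corrected library of 1000000, computed from the deposited counts, and log2 CPM used a prior count of 2. Relations used 100000 seeded permutations in scipy 1.17.1. DESeq2 1.42.0 was an alternative, with other scalings, filters, the suffix as a covariate, suffix m alone, the pseudogenes' counts added to Mif and each library left out in turn. The fit was tested on simulated counts.

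The genes named are Mif and Ddt, the receptor, partner and melanin lists, the copies of Mif, the genes around them, the 5 genes most like each by level and by deviation (predicted genes left out), and HIF targets called in a line. Egln1, Epas1, Ddx3y, S100a8 and Ly6g were added as checks of the labels and cell type. No columns of the tables were left unused.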

Additional observations from a re-analysis of the deposited data

How the results depend on the processing

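Over 17 alternatives each, the Mif difference stayed positive, at 0.51 to 0.62 in the P2 line and 0.52 to 0.69 in the P2H2 line on the log2 scale. Ddt ran from -0.096 to 0.11 in the P2 line, positive in 12 of 16 alternatives, and from 0.063 to 0.25 in the P2H2 line, positive in all 16. The difference of the lines' effects for Mif ran from -0.14 to 0.027. Counts of called genes moved more. The P2 line had 6 genes called by edgeR, 23 by DESeq2 and 10 with all 16 libraries in 1 fit. The P2H2 line had 10 by edgeR, 42 by DESeq2 and 6 without P2H2WT replicate 13, the low end of a range of 6 to 9 when each library was left out. For the title suffix, 23 genes were called by edgeR, 58 with no filter, 435 by DESeq2 and 9 with at least 10 counts in every library, an alternative chosen after seeing the data. Leaving out each library gave 17 to 1066, with 470 without P2KO replicate 6, 1066 without P2KO replicate 9 and 51 without P2H2WT replicate 18. The causes were not tested. Mif and Ddt passed for the suffix under none of 20 alternatives each (lowest adjusted p 0.423 and 0.520). The relation of Mif and Ddt kept its sign over 18 alternatives (r of 0.549 to 0.739). No paired analysis was run because the labels give no pairing of libraries between groups. Reads shared with copies limit the Mif level, and 51 to 84 counts per library limit Ddt.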
